A study of Mus musculus with 19 samples.

Results

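Slc14a2, its neighbour Slc14a1 and 3 genes that flank Smad4 (Elac1, Me2 and Mex3c) were followed in bulk RNA-seq of the mouse vomeronasal organ after conditional loss of Smad4. These 5 genes, of 35596 in the deposited tables, were picked by name: Slc14a2 for its higher level in both knockout lines, the other 4 for their place on chromosome 18. The values that chose Slc14a2 are those of the cKO libraries against their controls, so this contrast is described for Slc14a2 without a test. All 5 genes were among the 19465 that passed the filter on low counts over 18 libraries. Each library held polyadenylated RNA of the whole organ from female mice at postnatal day 21.

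In the AP-2εCre line Cre acts in immature basal vomeronasal sensory neurons, and in the OMPCre line it acts in mature apical and basal ones. Each line had 3 conditional knockouts (cKO, Cre+/- with Smad4 flox/flox), 3 heterozygotes (Het, Cre+/- with no floxed Smad4 in their labels) and 3 controls that the sample labels call wild type (WT). The study's own text uses both names for them, and its methods and design text describe these WT controls as Smad4 flox/flox without Cre. Read in this way, WT and cKO libraries share the floxed chromosome, Het and cKO libraries share Cre, and only cKO libraries have both. If the WT animals did not carry the floxed allele, an effect of losing Smad4 and an effect of alleles linked to the floxed locus cannot be told apart. The sources used here do not state the strain background of each line. A 19th library, of the AP-2εCre line, had conflicting labels and entered no comparison.

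Slc14a2 and Slc14a1 encode facilitative urea transporters that lie side by side in the genome. Slc14a2 is best known from the kidney, where it makes long and short proteins from separate start sites, and Slc14a1 from red blood cells and the endothelium of small vessels. Smad4 is the shared partner of receptor-activated SMAD proteins in BMP and TGFβ signaling. A floxed gene keeps the flanking DNA of the chromosome on which it was made, so neighbouring genes can carry linked alleles for many generations.

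On build GRCm38, Smad4 lies on chromosome 18 from 73639009 to 73703780. Mex3c (73573044 to 73592575) lies 46.4 kb to one side, and Elac1 (73735038 to 73754479) and Me2 (73769903 to 73815449) lie 31.3 and 66.1 kb to the other. Slc14a2 (ENSMUSG00000024552.16, 78146148 to 78596942, minus strand) lies 4.44 Mb from Smad4. Slc14a1 (ENSMUSG00000059336.14, 78100091 to 78142119, minus strand) is 4.03 kb from Slc14a2. Mex3c is on the plus strand and the other 4 are on the minus strand. No other gene of the files overlaps Slc14a1, Elac1, Me2 or Mex3c. Gm6133, on the opposite strand inside Slc14a2, had at most 22 estimated counts in a library.

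The libraries held 43385516 to 134042284 estimated counts, and the members' own counts ran from 332 (Slc14a1) to 7717 (Mex3c). Smad4 itself, summed over all exons and all cells of the organ, was at 54.4 to 62.5 CPM (counts per 1000000, scaled by edgeR's TMM factors) in OMPCre cKO libraries and at 64.8 to 83.9 CPM in the 6 controls of that line. In the AP-2εCre line the cKO libraries (33.8 to 66.5 CPM) overlapped the controls (39.6 to 81.0 CPM). Tfap2e, which carries AP-2εCre, was lower in the Het (5.44 to 8.88 CPM) than in the WT libraries (14.0 to 16.6 CPM) of its line. Omp, which carries OMPCre, was at 225 to 248 CPM in Het and 305 to 474 CPM in WT libraries of its line. The AP-2εCre cKO libraries, also Cre+/-, had 10.0 to 12.5 CPM of Tfap2e, between the Het and WT ranges. The OMPCre cKO libraries had 238 to 287 CPM of Omp, below the WT range. These levels did not go against a label, but Smad4 did not separate the AP-2εCre cKO libraries from their controls. The labels call the libraries biological replicates without saying which animals each came from, so p-values measure the spread between libraries.

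Per unit of transcript length, in TPM (transcripts per 1000000) over the 12 control libraries, Me2 (18.7 ± 4.13, SD) and Mex3c (14.3 ± 3.22) had the highest levels of the 5 genes. Slc14a2 (3.95 ± 1.01), Slc14a1 (3.17 ± 1.29) and Elac1 (2.59 ± 0.69) followed. The SD ranges of neighbours in this order overlapped, except those of Mex3c and Slc14a2.

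Slc14a2 was higher in every cKO library than in every control library of its line. In the AP-2εCre line the cKO libraries had 16.6, 23.1 and 29.7 CPM, the WT libraries 12.0, 9.28 and 12.3 CPM, and the Het libraries 13.3, 15.4 and 15.4 CPM. The lowest cKO library therefore stood just above the highest Het library. The OMPCre cKO libraries had 31.3, 33.9 and 37.4 CPM, the WT libraries 11.0, 8.60 and 14.0 CPM, and the Het libraries 14.8, 13.6 and 10.4 CPM. Here the gap between cKO and controls was wider than the range of either. Behind these values were 418 to 3233 estimated counts per library.

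The log2 fold change of Slc14a2 against both kinds of control was 0.84 (SE 0.19) in the AP-2εCre line, a ratio of group means of 1.79. It was 1.50 (SE 0.16) in the OMPCre line, a ratio of 2.84. The AP-2εCre minus OMPCre difference of these values was -0.66 log2 units (SE 0.25), given as a description without a test. Within 1 line all 3 cKO libraries were above all 6 controls for 2.18% of genes (AP-2εCre) and 1.4% (OMPCre). Of all genes, 33 of 19465 (0.17%) had all 3 cKO libraries above all 6 controls in both lines, and Slc14a2 was chosen on this pattern. No gene passed an adjusted p of 0.05 in the OMPCre line by edgeR's quasi-likelihood test (0.0%, while 735 of 18623 or 3.95% had an unadjusted p below 0.05 and DESeq2 called 42). For AP-2εCre 7 of 18495 passed (0.0378%, and 309 by DESeq2).

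The library names are of 2 kinds, a letter with a number or the name of the line with a number, and both kinds occur in each group. Within the lettered names of the AP-2εCre line, Slc14a2 averaged 26.4 CPM in 2 cKO libraries, 10.6 in 2 WT and 14.3 in 2 Het libraries, a ratio of 2.12 over the controls. Within the line-named set, with 1 library per genotype, the ratio was 1.20 (16.6 CPM in cKO, 12.3 in WT and 15.4 in Het). The OMPCre ratios were 2.72 and 3.06. The Het to WT ratios of Slc14a2 were 1.35 (lettered) and 1.25 (line-named) in the AP-2εCre line, and 1.45 and 0.739 in the OMPCre line, where the name sets went opposite ways. The AP-2εCre ratio of cKO to controls differed by more than 1.5 times between the name sets, and the single line-named cKO library is the lowest of its group.

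**Figure D1:**
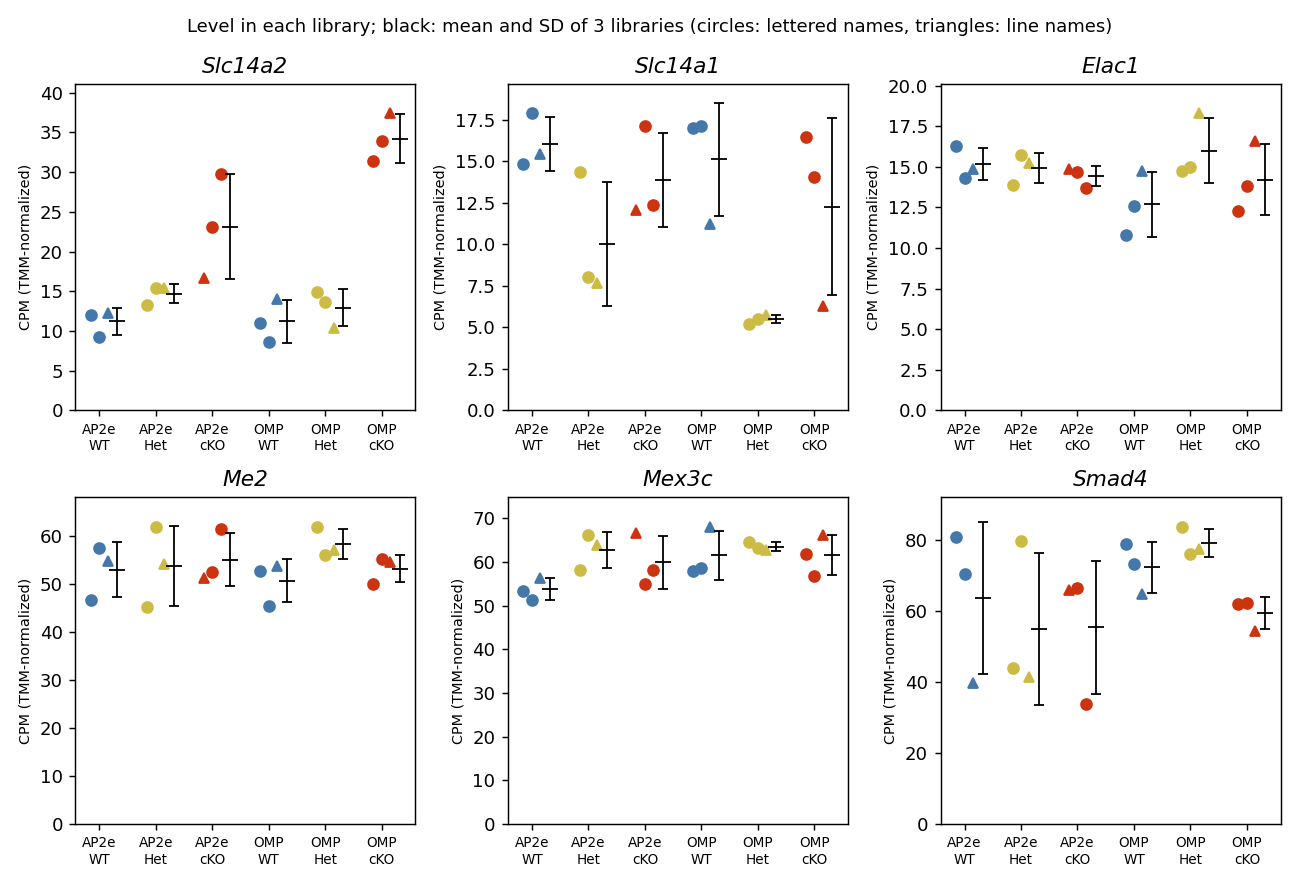
Level of the 5 genes and of Smad4 in each of 18 libraries (y axis, CPM from 0; x axis, genotype groups of the AP-2εCre line, written AP2e, and the OMPCre line), with points for libraries and black marks for the mean and SD of 3. Slc14a2 lies between 16.6 and 37.4 CPM in the 6 cKO libraries and between 8.60 and 15.4 CPM in the 12 controls, whereas Slc14a1 is lowest in the OMPCre Het libraries.

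The genotypes were compared in pairs, of which cKO and WT share the floxed chromosome by the methods and cKO and Het share Cre. Averaged over both lines in a fit of all 18 libraries, Slc14a2 was higher in cKO than in WT by 1.33 log2 units (SE 0.15, a 2.51-fold difference). It was higher in cKO than in Het by 1.03 log2 units (SE 0.15, 2.04-fold). These 2 differences use the cKO libraries that chose the gene and have no test. Of all genes, 0.123% passed for cKO against WT and 0.308% for cKO against Het.

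The remaining pair, Het against WT, did not use the cKO libraries and was tested. Slc14a2 was 0.30 log2 units higher in Het than in WT (SE 0.15, 95% interval -0.01 to 0.61, adjusted p = 0.742 by edgeR's quasi-likelihood test). A two-sided exact permutation test of log2(CPM + 1), with genotypes exchanged within each line, gave p = 0.06 over 400 regroupings. The difference was 0.39 (SE 0.21, adjusted p = 0.898) in the AP-2εCre line, where the 3 Het libraries lay above the 3 WT libraries, as for 4.98% of all genes. In the OMPCre line it was 0.21 (SE 0.21, adjusted p = 0.949) and the groups overlapped. The WT libraries were thus at or below the Het libraries on average in both lines, while the cKO libraries were above both. Of 19465 genes, 35 (0.18%) passed the adjusted p of 0.05 for Het against WT over both lines, and 213 by DESeq2. Within the AP-2εCre line 0.17% passed, within the OMPCre line 0.0462%, and 0.0257% for the difference between the lines.

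**Figure D2:**
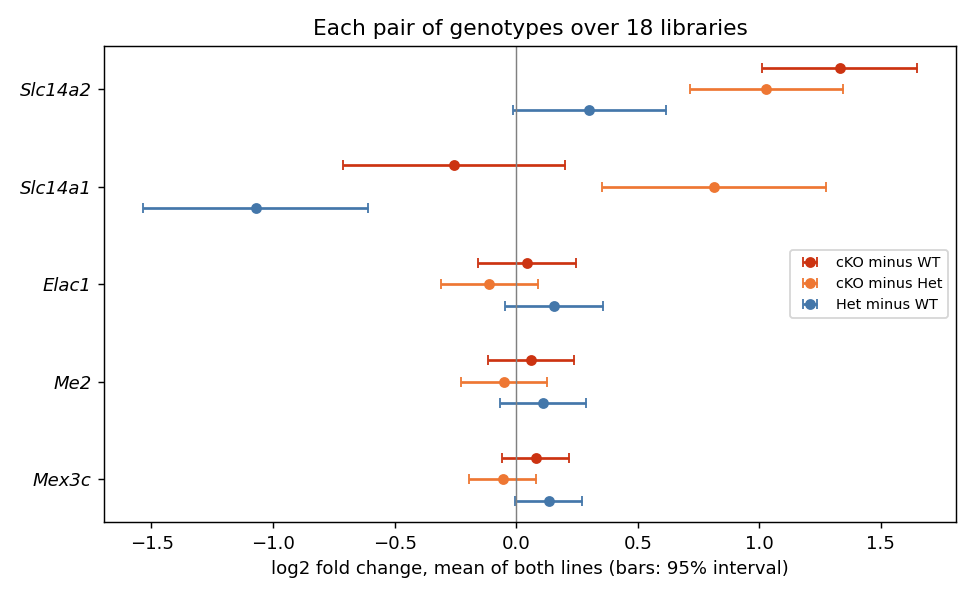
Log2 fold change between each pair of genotypes, averaged over both lines (x axis; bars are 95% intervals), for the 5 genes. Slc14a2 has its largest values in the comparisons with cKO that chose it (1.33 and 1.03, described without a test), Slc14a1 in those with Het (0.82 and -1.07), and Elac1, Me2 and Mex3c lie within 0.16 of 0 in all 3.

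Nearly all Slc14a2 reads were assigned to a single transcript. Slc14a2-205, with 11 exons and 2863 bases from 78146148 to 78179134, took 94.3% to 100% of the gene's estimated counts in the 18 libraries (median 99.7%). It begins inside the gene, far downstream of the start of the longest form, Slc14a2-206, which spans 78146148 to 78596942 in 22 exons. Slc14a2-206 had at most 34.8 estimated counts in a library and had a count above 0 in 5 of 18. The 4 other annotated transcripts had at most 57.8. The cKO libraries had 8.28 ± 1.95 TPM of Slc14a2-205 in the AP-2εCre line against 3.40 ± 0.886 in WT and 4.53 ± 0.736 in Het libraries (SD, n = 3 each). The OMPCre values were 10.9 ± 2.85 TPM in cKO, 3.51 ± 1.78 in WT and 4.21 ± 0.154 in Het libraries. The higher level of the gene in cKO libraries was thus assigned to this shorter transcript. Its Het minus WT difference was 0.30 log2 units (SE 0.17, adjusted p = 0.917 by edgeR over 68946 transcripts, of which 0.0218% passed).

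Markers of other cells were read beside Slc14a2, since whole-organ RNA cannot tell fewer cells of a type from less RNA per cell. The summed level of 4 mature neuron markers (Omp, Gnao1, Gnai2 and Trpc2) was 1161 to 1343 CPM in AP-2εCre cKO libraries and 817 to 1160 CPM in the 6 controls. For OMPCre it was 990 to 1009 CPM in cKO libraries, inside the 899 to 1203 CPM of the controls. The sum includes Omp, the gene that carries OMPCre. Without Omp, a sum added after the values were seen, the cKO libraries had 712 to 794 CPM (AP-2εCre) and 712 to 771 CPM (OMPCre) against 524 to 744 and 619 to 746 CPM in the controls, with overlap in both lines. Of the kidney markers, Umod had at most 1 count in a library, Avpr2 stayed at or below 0.20 CPM and Aqp2 at or below 0.431 CPM. The sum of the 4 kidney markers, made up mostly of Scnn1g, was 0.934 to 6.41 CPM in the 6 cKO libraries and 1.86 to 10.5 CPM in the 12 controls. The sum of 3 markers of ciliated respiratory cells (Foxj1, Dnah5 and Tekt1) was 241 to 343 CPM in AP-2εCre cKO libraries, below the 357 to 474 CPM of the 6 controls of that line. For OMPCre it was 267 to 409 CPM in cKO libraries, inside the 206 to 427 CPM of the controls. Sums for immature neurons, sustentacular cells, ensheathing glia, endothelium, red cells and chondrocytes overlapped between cKO and control libraries in both lines. The part of the neuronal and ciliated cell marker levels in the AP-2εCre difference of Slc14a2 was not tested.

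The genes whose log2(CPM + 1) followed Slc14a2 most closely over the 18 libraries, of 15803 with a mean of at least 1 CPM, were on chromosomes other than 18. They included Srd5a1 (Pearson r = 0.92), which encodes a steroid reductase, Gcnt2 (0.90), a glycan-branching enzyme, Unc13c (0.88), a presynaptic protein, and Tenm2 (0.86), a teneurin. The libraries share genotype groups, so these values largely describe the groups. After the 6 group means were subtracted the closest genes were Slc37a1 (0.91), Dbnl (0.87), Txnl4a (0.83), Astn1 (0.83) and Atp6v0a1 (0.82). Txnl4a, a splicing factor gene, lies 1.61 Mb from Slc14a2 on chromosome 18. Slc14a1, next to Slc14a2, had r = -0.07 before and -0.43 after this subtraction.

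Slc14a1 was lower in the Het than in the WT libraries of both lines, a difference whose call depended on the fit. The AP-2εCre WT libraries had 14.8, 17.9 and 15.5 CPM, the Het libraries 14.4, 8.03 and 7.68 CPM, and the cKO libraries 12.1, 17.1 and 12.4 CPM. Het replicate 1 lay close to the WT range and above 2 cKO libraries. The OMPCre WT libraries had 17.0, 17.2 and 11.2 CPM, the Het libraries 5.22, 5.52 and 5.73 CPM, and the cKO libraries 16.5, 14.1 and 6.26 CPM. The 3 Het libraries were the lowest of this line, and cKO replicate 3 was just above them.

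All 3 Het libraries were below all 3 WT libraries in both lines, a pattern that 79 of 19465 genes had (0.406%). The Het minus WT log2 fold change over both lines was -1.07 (SE 0.22, 95% interval -1.54 to -0.61). Its adjusted p was 0.0626 by edgeR's quasi-likelihood test (unadjusted p = 0.000179), 0.000267 by DESeq2 and 0.0214 by edgeR with the kind of library name as a covariate. The exact permutation test within lines gave p = 0.005, the smallest that 400 regroupings allow. Without AP-2εCre Het replicate 1 the edgeR adjusted p was 0.0263, and without OMPCre cKO replicate 3 it was 0.0142. By edgeR the difference was -1.46 (SE 0.31, adjusted p = 0.161) in the OMPCre line and -0.68 (SE 0.31, adjusted p = 0.862) in the AP-2εCre line. DESeq2 called it in the OMPCre line (-1.47, adjusted p = 0.000834), where it called 115 of 19465 genes. It did not call it in the AP-2εCre line (-0.68, adjusted p = 0.624). The difference between the lines was 0.78 by edgeR (SE 0.43, adjusted p = 0.917). Within the lettered names the Het to WT ratios were 0.684 (AP-2εCre) and 0.314 (OMPCre), and within the line names, with 1 library each, 0.496 and 0.511.

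Against both kinds of control together, Slc14a1 in cKO libraries had a mean log2 fold change of 0.28 over both lines (SE 0.18, adjusted p = 0.694). The sign depended on the control: cKO minus WT was -0.26 (SE 0.21, 95% interval -0.71 to 0.20, adjusted p = 0.833) and cKO minus Het was 0.82 (SE 0.22, adjusted p = 0.167 by edgeR and 0.017 by DESeq2). The OMPCre line gave 0.25 (SE 0.48, adjusted p = 1.00) against both controls and the AP-2εCre line 0.10 (SE 0.27, adjusted p = 0.951). As a comparison added after the values were seen, and so as a description, the 12 libraries with floxed Smad4 by the methods (WT and cKO) were set against the 6 Het libraries. Slc14a1 was 0.94 log2 units higher in the 12 (SE 0.19, adjusted p = 0.0499 by edgeR, where 81 genes or 0.416% passed). The call was lost in 15 of 18 fits with a single library left out, with an adjusted p of up to 0.162 (without OMPCre Het replicate 1). It was also lost in 5 of 11 other settings, among them the replicate number as a block.

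Red cell and endothelial markers were read beside Slc14a1, since both kinds of cell are known to express it. Slc4a1, the anion exchanger of red cells, was at 63.1 to 92.9 CPM in the 3 OMPCre Het libraries and at 73.3 to 87.4 CPM in the WT libraries of that line. These ranges overlapped. AP-2εCre Het replicate 2 had more Slc4a1 (89.6 CPM) than the 3 WT libraries (36.5 to 49.0 CPM) beside a Slc14a1 level of 8.03 CPM. AP-2εCre Het replicate 3 and OMPCre cKO replicate 3 had the lowest Slc4a1 of the 18 libraries (11.0 and 16.8 CPM). Their Slc14a1 levels were 7.68 and 6.26 CPM. The sum of 7 erythroid markers was 2083 to 6899 CPM in the 6 Het and 1590 to 5831 CPM in the 6 WT libraries. The same 2 libraries had sums of 2083 and 2963 CPM. The lowest sum, 1590 CPM, was that of AP-2εCre WT replicate 3, with 15.5 CPM of Slc14a1. Among 4 endothelial markers, Cdh5 was at 33.8 to 40.2 CPM in OMPCre Het and 34.8 to 44.0 CPM in OMPCre WT libraries. Their sum varied from 152 to 1449 CPM over the 18 libraries, nearly all through Pecam1. The part of red cell content in these Slc14a1 levels was not tested.

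Slc14a1 has 3 annotated transcripts that differ at their ends, and the 2 minor ones split differently in cKO and WT libraries. Slc14a1-201 (78100091 to 78123426) took 69.0% to 100% of the gene's estimated counts. Slc14a1-203 (78101649 to 78142119), the form with the most distant start, took 10.8%, 15.6% and 17.3% in AP-2εCre WT and 7.66%, 9.82% and 27.8% in OMPCre WT libraries. It was at 0 in 5 of 6 cKO libraries and took 4.16% in AP-2εCre cKO replicate 2, the most deeply sequenced library. The 6 WT libraries had 61.4 to 168 estimated counts of it.

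Slc14a1-202 (78101649 to 78123331) went the other way. It took 23.2%, 20.7% and 17.2% in AP-2εCre cKO and 16.0%, 16.1% and 11.1% in OMPCre cKO libraries, against 0 to 9.82% in the 6 WT libraries. Het libraries ranged over both, from 0 to 26.6% for Slc14a1-202 and from 0 to 31.0% for Slc14a1-203. This comparison was added once the shares had been seen and is given as a description. Of 37653 transcript shares that could be compared, 57 (0.151%) had all 6 cKO on one side of all 6 WT libraries, 52 of 10642 genes (0.489%) had at least 1 such share, and 5 (0.047%) had at least 2. In the transcript fit neither form was called for cKO against all controls by edgeR (Slc14a1-203 adjusted p = 0.870, Slc14a1-202 adjusted p = 0.909), whereas DESeq2 called Slc14a1-203 (adjusted p = 0.0131). Reads were assigned by salmon among overlapping transcripts, and the uncertainty of that assignment was not in the files.

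**Figure D3:**
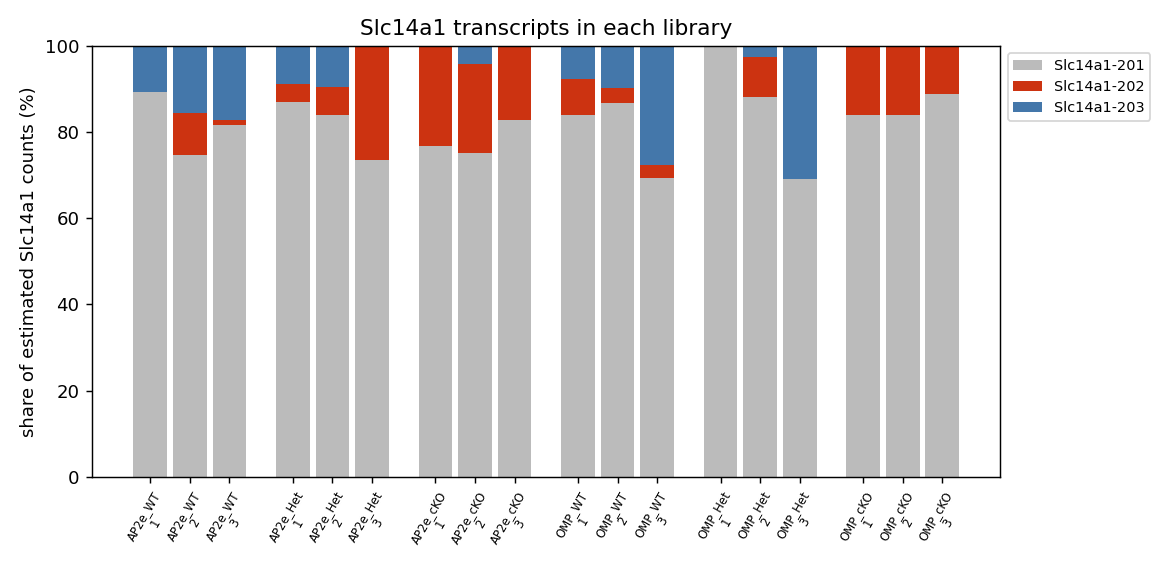
Share of each of the 3 Slc14a1 transcripts in the gene's estimated counts (y axis, percent) in each of 18 libraries (x axis, by group and replicate). Slc14a1-203 is present in all 6 WT libraries and in 1 of 6 cKO libraries, whereas Slc14a1-202 takes 11.1% to 23.2% in cKO libraries.

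None of the 3 genes beside Smad4 passed the test between cKO and control libraries. Elac1 encodes a nuclease that trims the end of tRNA precursors. It had 14.8, 14.7 and 13.7 CPM in AP-2εCre cKO libraries and 13.9 to 16.3 CPM in the controls, and 12.3, 13.8 and 16.6 CPM in OMPCre cKO libraries and 10.8 to 18.3 CPM in the controls. The groups overlapped in both lines. The mean cKO log2 fold change was -0.03 (SE 0.08, 95% interval -0.21 to 0.14, adjusted p = 0.967 by edgeR).

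Me2, the mitochondrial malic enzyme that uses NAD, had 51.3, 52.4 and 61.4 CPM in AP-2εCre cKO libraries against 45.2 to 61.9 CPM in the controls. The OMPCre cKO libraries had 49.9, 55.1 and 54.5 CPM against 45.5 to 61.8 CPM. Its mean log2 fold change was 0.01 (SE 0.07, 95% interval -0.15 to 0.16, adjusted p = 1.00). Mex3c, an RNA-binding ubiquitin ligase, had 66.8, 55.1 and 58.1 CPM in AP-2εCre cKO libraries against 51.4 to 66.3 CPM in the controls. In the OMPCre line it had 61.8, 56.9 and 66.1 CPM against 58.0 to 68.1 CPM, and the mean log2 fold change was 0.01 (SE 0.06, 95% interval -0.11 to 0.13, adjusted p = 0.994). As ratios, the 95% intervals of the 3 genes ran from 0.867 (the lower bound for Elac1) to 1.12 (the upper bound for Me2). By the same test 40 of 19465 genes passed for the mean cKO effect (0.205%).

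Between Het and WT libraries Elac1, Me2 and Mex3c were higher in Het by 0.16 (SE 0.09), 0.11 (SE 0.08) and 0.13 (SE 0.06) log2 units. The adjusted p-values were 0.843, 0.890 and 0.731 by edgeR. Single lines gave an unadjusted p of 0.0242 for Elac1 in the OMPCre line (adjusted 0.631) and of 0.0271 for Mex3c in the AP-2εCre line (adjusted 0.792). In the AP-2εCre line the 3 Het libraries had 58.1, 66.3 and 63.9 CPM of Mex3c and the 3 WT libraries 53.5, 51.4 and 56.4 CPM, without overlap, a pattern of 4.98% of all genes in this line. Me2 in the OMPCre line had 61.8, 56.0 and 57.0 CPM in Het and 52.7, 45.5 and 53.7 CPM in WT libraries, also without overlap, as for 6.38% of all genes there. Elac1 and Mex3c have 1 annotated transcript each, and Me2-201 took 99.1% to 99.95% of the Me2 counts, so these genes gave no comparison between forms.

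Tested genes around Smad4 on chromosome 18 were counted by distance, leaving out Smad4 itself and Slc14a2, which was chosen on the cKO libraries. Of the 43 other genes within 5 Mb of Smad4, none had an adjusted p below 0.05 for the mean cKO effect by edgeR or by DESeq2. An unadjusted p below 0.05 was found for 4 of these 43 genes (9.30%), and over all genes for 1809 of 19465 (9.29%). It was found for 19 of 140 at 5 to 20 Mb (13.6%), for 26 of 316 on the rest of the chromosome (8.23%) and for 1759 of 18964 on other chromosomes (9.28%). For Het against WT the same 43 genes gave no adjusted call by edgeR, 5 unadjusted ones (11.6%, against 6.95% over all genes) and 1 call by DESeq2, which was Slc14a1. The other windows gave 4.29%, 7.59% and 6.94% unadjusted. For WT and cKO minus Het 8 of the 43 genes (18.6%) had an unadjusted p below 0.05, against 8.16% on other chromosomes and 8.18% over all genes, and 1 of them, Slc14a1, passed the adjusted p. For cKO minus Het 7 of 43 did (16.3%, against 9.48% on other chromosomes and 9.52% over all genes), and for cKO minus WT, which share the floxed chromosome by the methods, 5 of 43 did (11.6%, against 8.07% and 8.08%). Within 10 Mb of Smad4, which held 102 such genes, the unadjusted shares were 14.7% for cKO minus controls (15 genes), 7.84% for Het minus WT (8), 15.7% for WT and cKO minus Het (16), 16.7% for cKO minus Het (17) and 13.7% for cKO minus WT (14). By adjusted p, 2 of the 102 passed for WT and cKO minus Het, against 0.416% of all genes, and none for the others. Of these 2, 1 was Slc14a1, whose call most single removals lost. These comparisons share libraries, neighbouring genes are not independent, and the differences between windows were not tested. The median log2 fold change of the 43 genes was 0.01 for cKO and 0.02 for Het against WT.

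**Figure D4:**
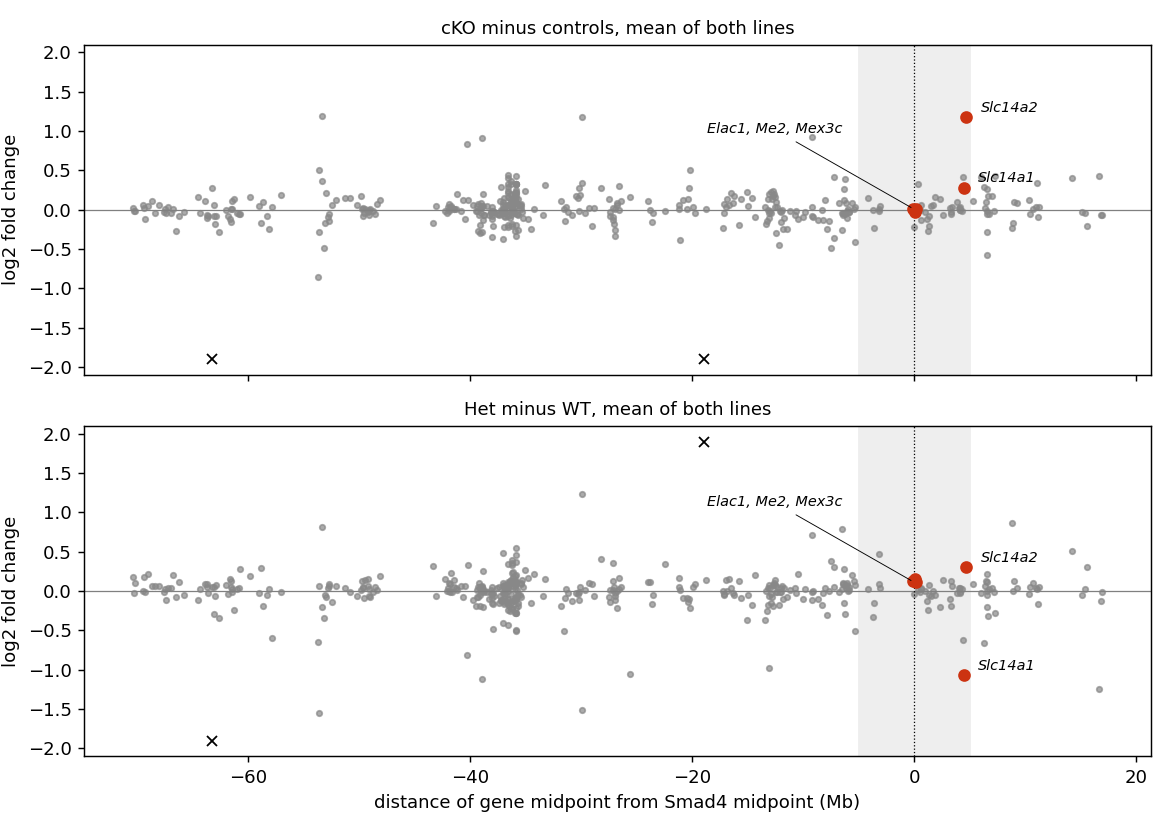
Log2 fold change, averaged over both lines, of the 431 tested chromosome 18 genes with a mean of at least 1 CPM against distance from Smad4 (x axis, Mb), for cKO minus controls (top) and Het minus WT (bottom). Red points are the 5 genes, the grey band marks 5 Mb to each side, and crosses at the edge stand for 2 genes per panel with values beyond 2. Slc14a2 (1.18 at the top) and Slc14a1 (-1.07 at the bottom) are the farthest from 0 among the genes plotted within the band.

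Of the genes within 5 Mb of Smad4 or of Slc14a2, those with the lowest p on the higher side for the cKO effect, leaving out Slc14a2, were Txnl4a (0.26, SE 0.06, adjusted p = 0.116) and Sall3 (0.43, SE 0.13, adjusted p = 0.301), a zinc finger gene. On the lower side they were Hsbp1l1 (-0.58, adjusted p = 0.265), Rbfa (-0.28, adjusted p = 0.308) and Loxhd1 (-2.69, adjusted p = 0.378, at most 0.626 CPM in any library). For Het minus WT the 3 genes with the lowest p on the higher side were Stard6 (1.50, adjusted p = 0.242), Hdhd2 (0.12, adjusted p = 0.671) and 4930503L19Rik (0.47, adjusted p = 0.700). On the lower side they were Slc14a1, Siglec15 (-0.62, adjusted p = 0.618) and AC127331.2 (-0.65, adjusted p = 0.742). Siglec15, a lectin gene 0.0888 Mb from Slc14a2, averaged 1.97 and 2.27 CPM in WT, 1.58 and 1.20 CPM in Het, and 2.56 and 2.01 CPM in cKO libraries of the AP-2εCre and OMPCre lines. Its order of genotypes was that of Slc14a1 in the OMPCre line, without a call by edgeR.

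None of 9 listed genes next to Slc14a2 passed for the mean cKO effect, and their median log2 fold change was 0.03 against -0.0012 over all genes. None of 8 tested genes next to Smad4 passed either (median 0.04). Mapk4, an atypical MAP kinase gene 0.225 Mb from Smad4, had the lowest p of these (0.33, SE 0.11, unadjusted p = 0.0100, adjusted p = 0.349), with 20.7 and 22.2 CPM in the cKO and 16.7 to 17.7 CPM in the control groups on average. Dcc, the netrin receptor, had 0.51 (SE 0.27, adjusted p = 0.596). The 6 paralogs of Elac1, Me2 and Mex3c did not pass and ranged from -0.11 (Elac2) to 0.12 (Me3).

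Genes that make or use urea, or that respond to salt and water, gave no call by edgeR in any comparison of cKO with controls. Of 7 tested urea metabolism genes, Slc25a15, the mitochondrial ornithine carrier, had -0.22 (SE 0.06, adjusted p = 0.234) and Asl, argininosuccinate lyase, had -0.19 (SE 0.08, adjusted p = 0.494). The median of the 7 was -0.19, and the values ran from -1.95 (Nags, at most 0.407 CPM) to 0.02 (Ass1). Of 8 tested aquaporins, which carry water across membranes, Aqp1 had 0.16 (SE 0.07, adjusted p = 0.505) and Aqp4 -0.08 (SE 0.06, adjusted p = 0.694), with a median of -0.10 and a range from -0.30 (Aqp9) to 0.40 (Aqp7). The 6 tonicity response genes ranged from -0.17 (Slc5a3) to 0.07 (Slc6a12), and Nfat5, their regulator, had 0.06 (SE 0.09, adjusted p = 0.910).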

How the data were processed

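Whole vomeronasal organs were profiled by single-end RNA-seq of 75 bases, 19 libraries in all. The authors made estimated counts and TPM values per transcript with salmon 0.14.0 against mouse mm10 (GRCm38) sequences, a coding-sequence set by the methods, although the deposited lengths equal full exonic lengths for 100% of matched transcripts, and tested genes with DESeq2 1.22.2. The deposited expected counts were summed per gene over 116072 of 116248 transcripts matched to GENCODE vM21 and rounded. The deposited TPM values served only for levels between genes, transcript levels and an alternative on the log2(TPM + 0.1) scale. Whether salmon used the strand is not given in the sources used here.

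Counts were filtered (filterByExpr), scaled (TMM) and fitted by edgeR 4.0.16 quasi-likelihood tests under R 4.3.3, as each line's 3 cKO against 6 control libraries and as 6 groups over 18 libraries. Adjusted p-values are Benjamini-Hochberg over all genes tested, and intervals use the fit's degrees of freedom. Two-sided exact permutations exchanged genotypes within lines (scipy 1.17.1). DESeq2 1.42.0, other filters and scalings, TPM with limma 3.58.1, library names, replicate numbers and single removals were alternatives, as were windows without Slc14a2 and Smad4, added after seeing the data. The fit was tested on simulated data: of 200 genes changed by 1 log2 unit among 19465, it recovered 89% for the mean cKO effect and 86.5% for Het against WT. There were 11 and 5 false calls. The changed genes were drawn only from those with higher counts, and no effect of library name was simulated. These rates therefore do not cover genes or transcripts with few counts.

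The members, lists and named genes were chosen with earlier results of these data known: the 5 members, Smad4 and both Cre genes, up to 3 genes each way with the lowest p near Smad4 or Slc14a2, list genes that passed or gave the range, and the 5 genes most correlated with Slc14a2. Further list genes (Mapk4, Siglec15, Slc25a15 and others) were named after their values were seen. Some genes that these rules name are not reported here. No pair of libraries agreed within sampling noise.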

Additional observations from a re-analysis of the deposited data

How the results depend on the processing

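Over the refitted alternatives, Slc14a2 kept its direction. The cKO difference ranged from 0.66 to 1.07 log2 units in the AP-2εCre and from 1.40 to 1.61 in the OMPCre line, and with single libraries left out from 0.62 to 1.03 and from 1.42 to 1.57. Het minus WT ranged from 0.20 to 0.39 (0.22 to 0.40 with single libraries left out), never with an adjusted p under 0.05. Within 1 kind of library name, as ratios without a fit, the AP-2εCre line-named cKO difference was 0.26 log2 units and Het minus WT reversed in the OMPCre line-named set (-0.44).

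Slc14a1 Het minus WT was called by DESeq2 (-1.08, adjusted p = 0.000267), with the kind of library name as a covariate (-1.06, 0.0214) and, added later, without AP-2εCre Het replicate 1 and OMPCre cKO replicate 3 together (-1.25, 0.000835). Over 11 alternatives its adjusted p ran from 0.000267 to 0.898, and the values with single libraries left out ran from -1.25 to -0.99. The cause of these changes was not tested. Slc14a1-201 Het minus WT was called by DESeq2 alone (-1.04, adjusted p = 0.00461), as was the cKO effect of Slc14a1-203 (-5.47).

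With WT controls only, the cKO effect reversed for Slc14a1 (-0.26 over both lines, -0.21 in AP-2εCre and -0.30 in OMPCre), for Elac1 (0.045, and 0.16 in OMPCre), and in OMPCre for Me2 (0.070) and Mex3c (0.00034). With Het controls only it reversed for Me2 (-0.049) and Mex3c (-0.055, and -0.065 in AP-2εCre). With TPM it reversed for Elac1 (0.090, and 0.20 in AP-2εCre). With the OMPCre line alone it was -0.032 for Me2 and -0.022 for Mex3c, and with AP-2εCre alone Elac1 Het minus WT was -0.019 and Me2 floxed minus Het 0.0063. None of these had an adjusted p under 0.05. With single libraries left out, the mean cKO effect ran from -0.096 to 0.015 for Elac1, -0.036 to 0.035 for Me2 and -0.029 to 0.042 for Mex3c. For AP-2εCre it ran from -0.089 to 0.21 for Slc14a1, -0.035 to 0.094 for Me2 and -0.040 to 0.10 for Mex3c, and for OMPCre from -0.026 to 0.57 for Slc14a1, -0.14 to 0.076 for Elac1, -0.082 to 0.0042 for Me2 and -0.076 to 0.033 for Mex3c.

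Within 5 Mb of Smad4, leaving out Slc14a2 and Smad4, an unadjusted p under 0.05 gave 4 genes for cKO and 5 for Het minus WT in place of 0 each, and DESeq2 gave 1 for Het minus WT. DESeq2 called 258 genes for the mean cKO effect against 40, and 213 for Het minus WT against 35.

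Replicate numbers were not taken as pairs, since not every same-numbered pair had residuals correlated above 0.1. In the AP-2εCre line 2 of 9 did (-0.34 to 0.21, mean -0.089, against 0.046 for other pairs), and in the OMPCre line 7 of 9 (0.039 to 0.57, mean 0.27, against -0.13). The line-named library was replicate 3 of each OMPCre group and of AP-2εCre WT and Het, but replicate 1 of AP-2εCre cKO. Same numbers thus did not match the kinds of library name in the AP-2εCre line. With the replicate number as a block, Slc14a2 Het minus WT was 0.31, Slc14a1 Het minus WT was -1.05 (adjusted p = 0.0884) and the Slc14a2 cKO difference was 0.81 (AP-2εCre) and 1.51 (OMPCre). No other call of these comparisons changed with the block, except that Slc14a1 floxed minus Het had an adjusted p of 0.0681. With 3 libraries a group and whole-organ RNA, small or cell-restricted changes may have gone undetected.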

Other observations

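One library of the AP-2εCre line was titled as a heterozygote while its genotype label names floxed Smad4, so it was left out of every group. It held 14.2 CPM of Slc14a2, 2.49 CPM of Slc14a1 (125 estimated counts, all assigned to Slc14a1-201), 14.5 CPM of Elac1, 48.6 CPM of Me2 and 70.0 CPM of Mex3c. Its Slc14a2 level lay within the 8.60 to 15.4 CPM of the 12 controls, and its Slc14a1 level lay below the lowest of the 18 assigned libraries (5.22 CPM). The red cell gene Slc4a1 was at 22.6 CPM in it. The sum of the erythroid markers was 4255 CPM in this library, within the 1590 to 6899 CPM of the 18 assigned libraries. The part of red cell content in its Slc14a1 level was not tested. Added to the AP-2εCre heterozygotes, this library changed no call for the 5 genes between Het and WT libraries.

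The 35 genes that differed between Het and WT libraries lay on 15 chromosomes, and 1 of them was on chromosome 18. In 30 of the 35 the mean of the cKO libraries was nearer to that of the WT libraries and in 5 nearer to that of the Het libraries, as a description of the same 18 libraries. The same share over all tested genes is not given here, so these counts have no background to be read against. Slc14a1 was not among the 35 by edgeR, although its cKO mean was also nearer to that of the WT libraries.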
